A study of Homo sapiens with 8 samples.

Results

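The genes described here encode the kinetochore, the spindle checkpoint and the anaphase-promoting complex (APC/C), and they number 51 of the 20033 protein-coding genes of the annotation. They were taken from a list of named genes, and each was called bound when a peak overlapped its promoter window, which began 1000 bp ahead of the transcription start site (TSS) of any transcript and ended 500 bp past it. By that rule 18 of the 51 genes carried a PHF20 promoter peak, 6 of these also carried a PHF20L1 promoter peak, and 33 carried neither.

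PHF20 and PHF20L1 are related proteins with Tudor domains, which read methylated lysines, and both are found with the nonspecific lethal (NSL) complex, a histone acetyltransferase complex built around KAT8 that occupies promoters of broadly expressed genes. Chromosomes are held on the spindle by the kinetochore, which is assembled on centromeric chromatin containing the histone variant CENP-A. The constitutive centromere-associated network (CCAN) sits on this chromatin, and the KMN network (KNL1, the MIS12 complex and the NDC80 complex) joins it to microtubules. Kinetochores without microtubules activate the spindle checkpoint, which holds back the APC/C, the ubiquitin ligase whose activity against securin and cyclin B starts anaphase. Transcripts of many of these genes rise in G2 and M phase, and a cell cycle homology region (CHR) near the TSS is a known element of such promoters.

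The experiment was HA ChIP-Seq, in which DNA bound by an HA-tagged protein is pulled down from chromatin and sequenced, in U2OS cells, an osteosarcoma line, made to overexpress PHF20 or PHF20L1 with a triple HA tag and sorted for GFP. Its 8 libraries were 2 PHF20 ChIP libraries and 1 input, all with the tag at the N terminus, and 3 PHF20L1 ChIP libraries and 2 inputs, of which 1 ChIP and 1 input had the tag at the N terminus and 2 ChIP and 1 input at the C terminus. The replicates were combined by the authors into 1 final list of positions per protein, with 4147 peaks for PHF20 and 723 for PHF20L1, which give neither height nor read counts nor any value for a single library. Every group carried an overexpressed tagged protein, the depth behind each peak is unknown from these lists, the identity of the cells cannot be checked against marker genes, and a gene without a peak was only not called in the final list and may still hold the protein.

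Promoter sequences are shown for 5 of the 6 genes bound by both proteins and for the pair with the widest peaks of PHF20 alone. Beside them stand 3 unbound genes that hold a CHR or E2F motif, so that bound and unbound promoters can be compared. From general knowledge, transcripts of these 3 genes rise in G2 and M phase, which was not measured here. Each runs from 150 bases before the TSS into the first 30 transcribed bases, 5′ to 3′ on the strand of the gene, from RefSeq promoters that were identical to hg38. Capitals mark the motifs found on either strand: the ETS motif (ACTTCCGG), the CHR (TTTGAA or TTCGAA), the E2F motif (TTTCCCGC, TTTCGCGC, TTTGCCGC or TTTGGCGC), the CCAAT box (CCAAT), the E-box (CACGTG) and the GC box (GGGCGG). A match is a description of the letters and not of a bound factor.
CENPQ, chr6:49463220-49463399, both proteins: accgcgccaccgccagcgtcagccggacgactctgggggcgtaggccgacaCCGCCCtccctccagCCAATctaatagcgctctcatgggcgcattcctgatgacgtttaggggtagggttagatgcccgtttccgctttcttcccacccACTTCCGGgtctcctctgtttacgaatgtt
NUF2, chr1:163321804-163321983, both proteins: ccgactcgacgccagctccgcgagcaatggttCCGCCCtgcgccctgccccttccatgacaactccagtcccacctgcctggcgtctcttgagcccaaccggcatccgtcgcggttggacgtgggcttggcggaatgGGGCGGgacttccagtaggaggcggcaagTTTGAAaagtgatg
NSL1, chr1:212791748-212791927, both proteins: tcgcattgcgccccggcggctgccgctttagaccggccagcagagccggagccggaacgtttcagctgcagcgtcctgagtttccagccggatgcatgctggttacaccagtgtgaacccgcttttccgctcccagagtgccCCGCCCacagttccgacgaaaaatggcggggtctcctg
CENPP, chr9:92325803-92325982, both proteins: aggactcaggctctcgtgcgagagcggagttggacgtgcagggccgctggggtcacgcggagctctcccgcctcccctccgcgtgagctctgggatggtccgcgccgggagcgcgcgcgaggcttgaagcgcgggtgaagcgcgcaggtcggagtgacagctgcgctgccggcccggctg
ANAPC2, chr9:137188531-137188710, both proteins: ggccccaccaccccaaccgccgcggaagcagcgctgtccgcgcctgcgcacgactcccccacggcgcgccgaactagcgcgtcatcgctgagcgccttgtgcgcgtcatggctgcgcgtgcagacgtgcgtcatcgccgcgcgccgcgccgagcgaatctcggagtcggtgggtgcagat
ANAPC7, chr12:110403679-110403858, PHF20 alone: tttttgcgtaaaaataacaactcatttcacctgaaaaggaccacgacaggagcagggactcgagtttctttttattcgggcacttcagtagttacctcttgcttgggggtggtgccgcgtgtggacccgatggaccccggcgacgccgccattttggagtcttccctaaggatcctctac
ANAPC13, chr3:134485956-134486135, PHF20 alone: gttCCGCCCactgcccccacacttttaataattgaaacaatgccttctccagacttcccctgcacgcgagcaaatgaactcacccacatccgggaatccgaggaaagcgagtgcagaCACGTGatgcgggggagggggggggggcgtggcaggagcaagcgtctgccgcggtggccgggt
CENPF, chr1:214603045-214603224, unbound: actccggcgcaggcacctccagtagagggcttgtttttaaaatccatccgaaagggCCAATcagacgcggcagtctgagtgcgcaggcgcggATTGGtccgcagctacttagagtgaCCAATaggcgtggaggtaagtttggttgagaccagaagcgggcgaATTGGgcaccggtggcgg
SPC25, chr2:168890401-168890580, unbound: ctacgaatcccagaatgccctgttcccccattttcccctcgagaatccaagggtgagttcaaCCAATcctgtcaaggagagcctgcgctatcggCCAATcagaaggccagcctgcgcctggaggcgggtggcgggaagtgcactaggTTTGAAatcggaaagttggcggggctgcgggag
BUB1, chr2:110678034-110678213, unbound: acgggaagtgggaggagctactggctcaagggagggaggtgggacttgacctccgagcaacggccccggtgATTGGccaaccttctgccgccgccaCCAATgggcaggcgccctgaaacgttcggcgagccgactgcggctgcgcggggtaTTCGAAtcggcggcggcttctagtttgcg

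The PHF20 peak covered all 180 printed bases at CENPQ, NUF2, NSL1, ANAPC2 and ANAPC7, 135 of them at ANAPC13 and 89 at CENPP. The PHF20L1 peak covered all 180 at NUF2, NSL1 and ANAPC2, 102 at CENPQ and 0 at CENPP, where it lay farther upstream. At CENPQ the ETS motif began at the TSS itself, and at NUF2 a CHR began 16 bp downstream of it. The unbound SPC25 and BUB1 promoters showed a CHR at almost the same place, 3 bp upstream and 1 bp downstream of the TSS, beside CCAAT boxes. At CENPF the CHR began 40 bp downstream of the TSS, beyond the printed stretch, and 4 CCAAT boxes lie within it.

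Over all members, the PHF20 share was 35.3% (18 of 51, Wilson 95% interval 23.6% to 49.0%), against a background of 20.7% of all protein-coding genes (4148 of 20033). The PHF20L1 share was 11.8% (6 of 51, 5.51% to 23.4%), against a background of 3.82% (766 of 20033). Both intervals lie above their backgrounds, but not in every setting. The PHF20 interval included its background when each peak was given only to the gene with the closest TSS (13 of 51, 25.5%, 15.5% to 38.9%, background 16.9%). The PHF20L1 interval did so in 3 of 9 settings, namely with only the outermost TSS of each gene (4 of 51, 3.09% to 18.5%, background 3.21%), with only peaks of at least 300 bp (3 of 51, 2.02% to 15.9%, background 2.27%) and without peaks below the median width of the list (3 of 51, background 2.11%). Of the 18 members bound by PHF20, 33.3% also had a PHF20L1 peak (16.3% to 56.3%), and the same held for 18.0% of all PHF20-bound genes (747 of 4148), a value inside that interval. No member had a PHF20L1 peak alone (0 of 51, for which the Wilson interval reaches 7.0% and 3 counts would be 5.88%), while 19 genes in the whole annotation did. These intervals cover counting error only, and since the list was drawn up with earlier results of these data known, no p is given for it.

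In the inner kinetochore, 5 of the 15 centromere and CCAN genes carried a PHF20 peak (33.3%, 15.2% to 58.3%) and 2 of them a PHF20L1 peak (13.3%, 3.74% to 37.9%). These intervals include the shares over all protein-coding genes, 20.7% and 3.82%. CENPQ and CENPP, which belong to the same CCAN subcomplex, were the genes with both. The PHF20 peak of CENPQ, at chr6:49462773-49464148, was the widest of any member at 1376 bp. It was as wide as or wider than 97.2% of all PHF20 peaks in the list. Within the CENPQ peak lay a PHF20L1 peak of 269 bp, at chr6:49463298-49463566, over the first exon. At CENPP the PHF20 peak (834 bp, chr9:92325058-92325891) and the PHF20L1 peak (373 bp, chr9:92325213-92325585) both ended before the TSS. The TSS closest to both centres was that of NOL8, a neighbour on the other strand, whose TSS is 317 bp away from that of CENPP.

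The other 3 bound genes of the inner kinetochore had PHF20 alone. CENPL, whose product pairs with CENP-N on CENP-A nucleosomes, carried a peak of 1106 bp at chr1:173823954-173825059, centred in its first exon. CENPC, the gene for the protein that links CENP-A nucleosomes to the MIS12 complex, had 2 peaks of 346 and 419 bp on either side of its TSS, neither of which spanned it. CENPA, the gene of the centromeric histone itself, was bound only through a distant TSS. Its peak of 309 bp lay 21663 bp upstream of the TSS of its canonical transcript, at the promoter of SLC35F6, and the gene was no longer called when protein-coding transcripts alone were considered. The promoter from which the canonical CENPA transcript starts therefore had no peak in either list. CENPB, CENPH, CENPI, CENPK, CENPM, CENPN, CENPO, CENPT, CENPU and CENPW were not called for either protein. CENPO and CENPU encode partners of CENP-P and CENP-Q in their subcomplex, so that genes of 1 subcomplex fell on both sides of the call. The promoter of CENPN, partner of CENP-L, likewise had no peak.

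**Figure D1:**
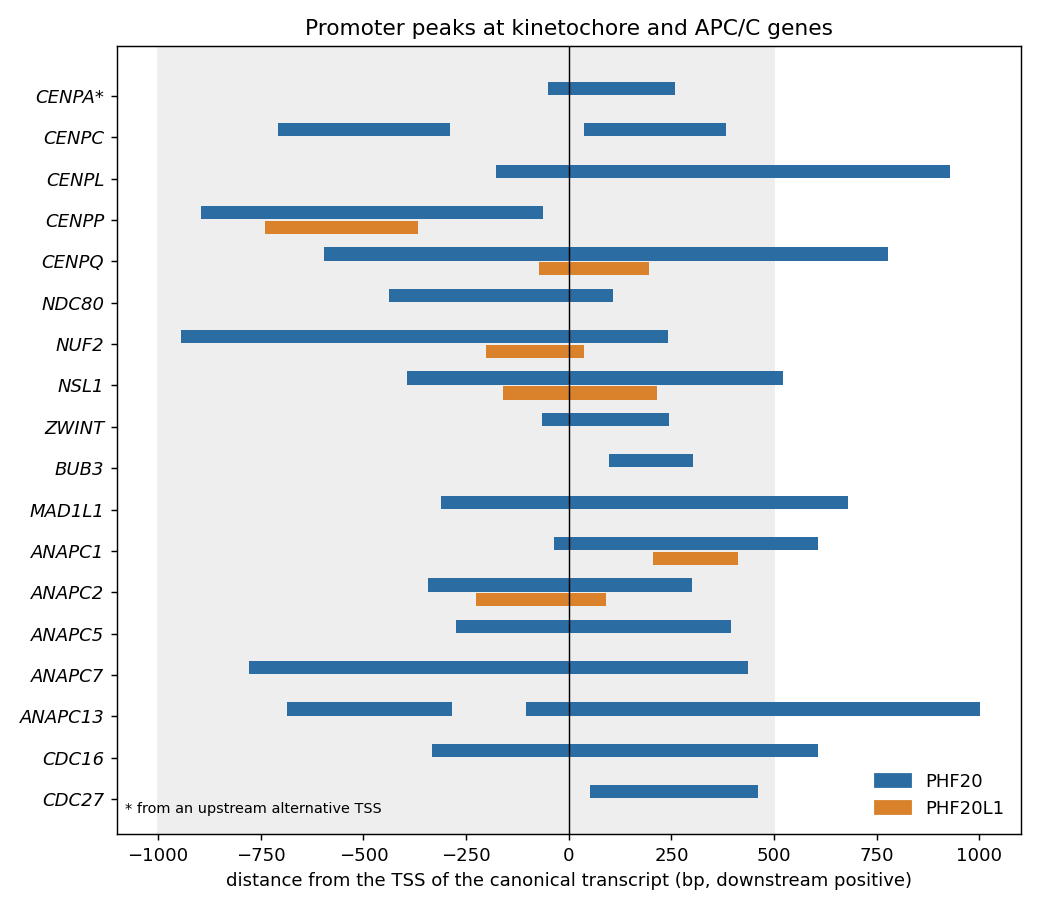
Extent of every promoter peak at the 18 bound genes, as distance in bp from the TSS of the canonical transcript with downstream positive (for CENPA, from the upstream alternative TSS). Blue bars are PHF20 peaks and orange bars PHF20L1 peaks, and the grey band is the promoter window. The 6 orange bars each lie inside a blue one, and no peak of CENPC, CENPP, BUB3 or CDC27 crosses the line of the TSS.

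In the KMN network, 4 of 10 genes carried a PHF20 peak (40.0%, 16.8% to 68.7%) and 2 of these a PHF20L1 peak (20.0% of the 10). The PHF20 interval includes the 20.7% of all protein-coding genes. The PHF20L1 interval begins at 5.67%, above the 3.82% of all genes, but rests on only 2 bound genes. NUF2 and NDC80, whose products pair at the microtubule-binding end of the NDC80 complex, were both bound by PHF20, and SPC24 and SPC25, which encode the end of the complex that faces the centromere, were not. The NUF2 peak was 1187 bp wide (chr1:163321009-163322195) and held a PHF20L1 peak of 239 bp (chr1:163321753-163321991) whose centre was 18 bp from the nearest NUF2 TSS. The centres of the NUF2 peaks were 270 bp apart, the widest such offset among the 6 shared promoters, and the PHF20 centre was closest to RGS5, on the other strand 99 bp away. NDC80 had a PHF20 peak of 547 bp that spanned its TSS but was centred closer to METTL4, whose TSS is 48 bp away on the other strand.

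NSL1, a subunit of the MIS12 complex with no relation to the NSL complex beyond its name, was bound by both proteins over its first exon. Its PHF20 peak was 915 bp wide (chr1:212791256-212792170) and its PHF20L1 peak 378 bp (chr1:212791561-212791938), the widest PHF20L1 peak among the members. The other MIS12 complex genes, MIS12, DSN1 and PMF1, had no peak, nor did KNL1, which encodes the checkpoint scaffold of the network. ZWINT, which encodes a KNL1-binding protein, had a narrow PHF20 peak of 310 bp across its TSS. None of the 3 genes of the fibrous corona, the outermost layer of the kinetochore, had a peak (CENPE, the gene of a kinesin, CENPF and ZW10). With 3 genes the interval reaches 56.1%, so that a share like that of the other groups could not be detected as missing. CENPJ, which keeps the centromere protein name though its product builds centrioles, was also unbound.

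Among the 6 spindle checkpoint genes, BUB3 and MAD1L1 carried a PHF20 peak and none a PHF20L1 peak. The PHF20 share was 33.3% (9.68% to 70.0%), an interval that includes the 20.7% of all protein-coding genes. MAD1L1, whose product recruits MAD2 to kinetochores, had a peak of 991 bp at chr7:2232266-2233256 that spanned its TSS. BUB3, whose product brings BUB1 and BUBR1 to KNL1, had the narrowest peak of all members at 204 bp, lying wholly in the gene with its centre 187 bp downstream of the nearest TSS. Only 2.29% of all PHF20 peaks in the list were as narrow as that. BUB1, BUB1B, MAD2L1 and TTK, which encode further proteins of the checkpoint, had no peak. Over kinetochore and checkpoint genes together the PHF20 share was 32.4% (11 of 34, 19.1% to 49.2%), and its interval includes the background.

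Among the roles of the members the APC/C subunits had the highest PHF20 share, with peaks at 7 of its 14 subunit genes (50%, 26.8% to 73.2%), although the interval overlaps those of the other roles. Over all protein-coding genes the share was 20.7%. For PHF20L1 the share of APC/C subunits was 14.3% (4.01% to 39.9%), beside 3.82% of all genes. ANAPC1 and ANAPC2 were bound by both proteins. ANAPC1 encodes the scaffold of the complex, and its PHF20 peak (643 bp, chr2:111883587-111884229) and PHF20L1 peak (207 bp, chr2:111883781-111883987) were centred in an intron, 273 and 297 bp from the nearest TSS. It was the 1 gene among the 6 with both proteins whose peaks touched no other gene's promoter. ANAPC2 encodes the cullin of the catalytic core. Its PHF20 peak (644 bp, chr9:137188259-137188902) was centred 20 bp from its TSS, and its PHF20L1 peak (317 bp, chr9:137188470-137188786) covered 49.2% of the PHF20 peak, the largest such share among the 6, and was centred closer to SSNA1, 100 bp away on the other strand. ANAPC11, which encodes the RING partner of the cullin, had no peak.

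CDC16, CDC23, CDC27 and ANAPC7 encode the tetratricopeptide subunits that form the arch of the complex, and 3 of these 4 genes had a PHF20 peak. Over all protein-coding genes the share was 20.7%. No interval was calculated for these 4 genes, and a difference from the other subunits was not tested. ANAPC7 carried the second widest peak among the members (1216 bp, chr12:110403272-110404487), CDC16 a peak of 941 bp centred 15 bp from a TSS (chr13:114234563-114235503), and CDC27 a peak of 408 bp that spanned 1 of its alternative TSSs. CDC23 had none. ANAPC5, which encodes a platform subunit, had a peak of 672 bp centred in its first exon (chr12:121352015-121352686), and ANAPC4, another platform gene, had none. ANAPC13, a small stabilising subunit, had a peak of 1108 bp (chr3:134484983-134486090) and another of 403 bp (chr3:134486269-134486671), both closer to CEP63, a centrosome gene whose TSS is 1 bp from that of ANAPC13. The remaining subunit genes ANAPC10, ANAPC15, ANAPC16 and CDC26 were unbound, as were those of both activators, CDC20 and FZR1, which bring substrates to the complex.

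**Figure D2:**
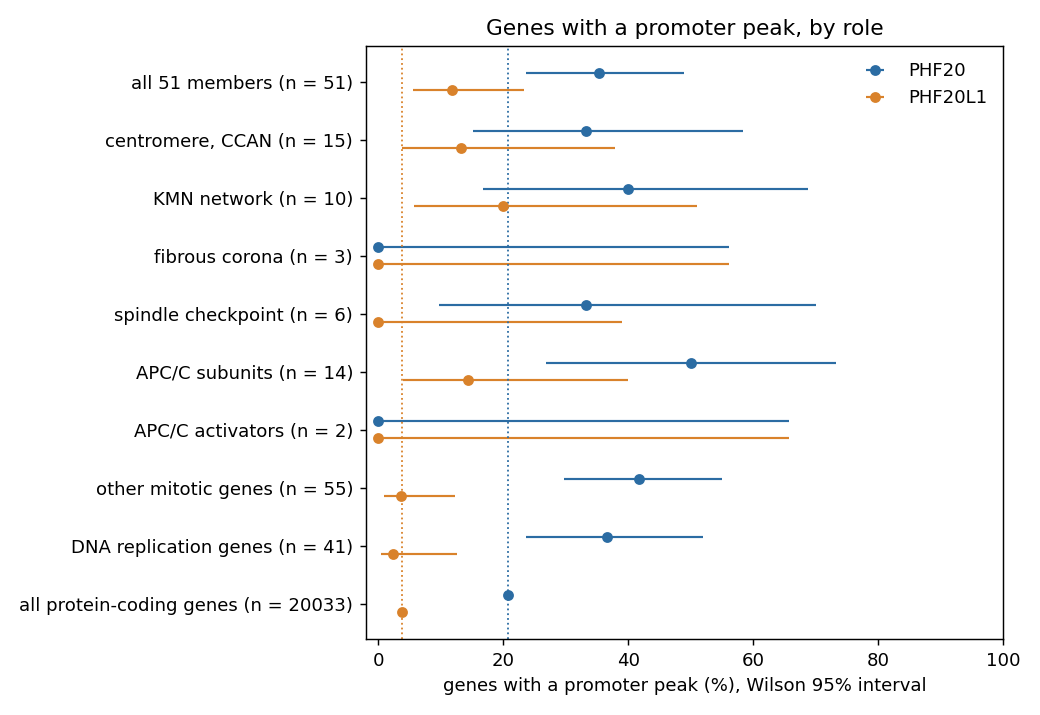
Share of genes with a promoter peak (percent, horizontal axis) for each role, with Wilson 95% intervals. Blue points are PHF20 and orange points PHF20L1, n is the number of genes, and dotted lines mark the share over all 20033 protein-coding genes (20.7% and 3.82%). Among the members the APC/C subunits have the highest PHF20 point at 50%, and the intervals of the roles overlap each other.

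By distance, no unbound member stood close to the edge of the window. Among the bound genes the peak farthest outside its nearest TSS was a PHF20L1 peak, at CENPP, and widening the window to 5000 bp upstream added no member to either list. The unbound genes nearest to a PHF20 peak were FZR1, 5409 bp from it, ANAPC15 at 6367 bp, CDC20 at 7189 bp and CENPM at 10507 bp. The farthest were CENPF, with no PHF20 peak within 911913 bp, and TTK, with none within 925316 bp.

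Peak width was the 1 graded measure the lists allowed. Where a gene had several peaks the widest was taken. The median at the 18 bound members was 753 bp (95% interval of the median 419 to 1106 bp, range 204 to 1376 bp), and over all 4148 PHF20-bound genes it was 682 bp (669 to 703 bp). Members with both proteins had a median PHF20 width of 874.5 bp (range 643 to 1376 bp, n = 6) and those with PHF20 alone 609.5 bp (204 to 1216 bp, n = 12), so that the ranges overlapped. Genome wide the same medians were 989 bp and 614 bp. The narrowest peak among the 6 shared promoters, that of ANAPC1, was wider than those of 6 of the 12 promoters with PHF20 alone. The PHF20L1 peaks of members had a median of 293 bp (207 to 378 bp) beside 331.5 bp over all PHF20L1-bound genes. All 6 lay inside the PHF20 peak of the same gene, of which they covered 19.5% at CENPQ to 49.2% at ANAPC2, and 548 of the 594 overlapping pairs at protein-coding promoters were nested in this way.

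**Figure D3:**
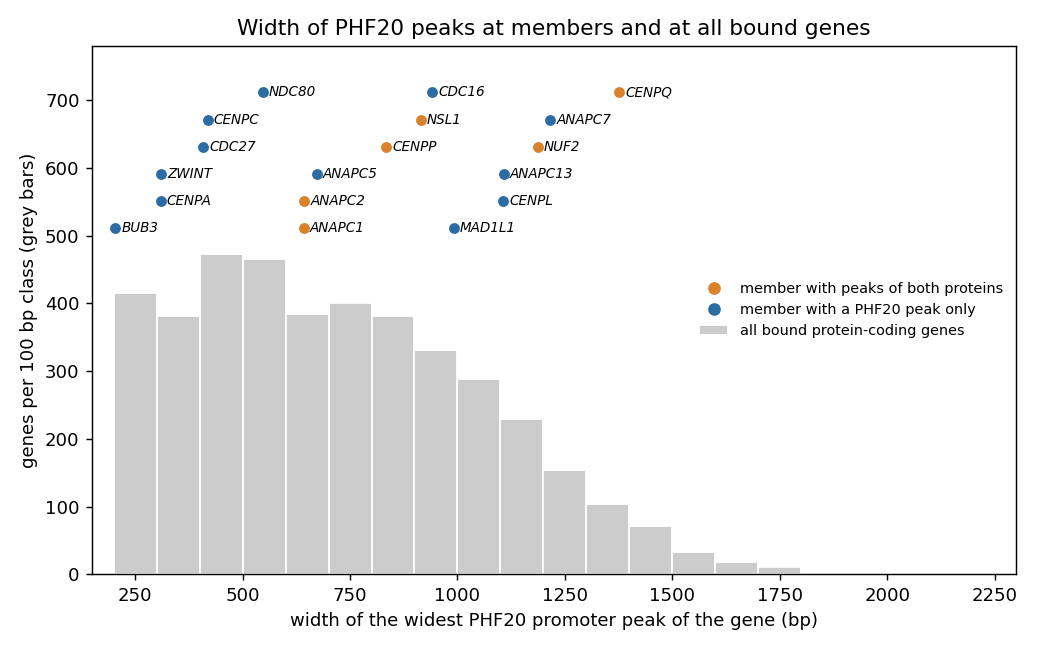
Width in bp of the widest PHF20 promoter peak of each gene. Grey bars count all 4148 bound protein-coding genes in classes of 100 bp (vertical axis), and dots mark the 18 members, orange where PHF20L1 was also bound and blue where it was not, set at different heights only to separate the names. The members spread over most of the range, from BUB3 at 204 bp to CENPQ at 1376 bp.

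The centres of the members' widest PHF20 peaks lay around the TSS, with a median signed distance of -2.5 bp (95% interval -149 to 104 bp) and 9 of 18 downstream. Over all bound genes the median was -5 bp, with 46.8% downstream. Of the 20 PHF20 peaks at members, 15 spanned a TSS of the gene and 13 that of its canonical transcript. For 6 of the 20, at CENPA, CENPP, NDC80, NUF2 and ANAPC13, the closest TSS belonged to another gene, and 10 of the 20 also reached the promoter window of another protein-coding gene. At such promoters a peak cannot be assigned to 1 gene of the pair from its position. The matching shares over all PHF20 peaks were not counted, so these counts cannot be read as particular to the members. Genome wide, 3562 PHF20 peaks at protein-coding promoters served 4148 bound genes, so peaks were shared there as well.

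Divergent partners, other protein-coding genes with a TSS on the opposite strand within 1000 bp of any TSS of the gene, were frequent among the members. They were found at 9 of the 18 PHF20-bound members (50%, 29.0% to 71.0%), at 5 of the 6 bound by both proteins (83.3%, 43.6% to 97.0%) and at 10 of the 33 unbound members (30.3%, 17.4% to 47.3%). Over all genes the shares were 34.6% of the PHF20-bound, 40.8% of those bound by both and 13.3% of the unbound. At 1 of the 9 bound members, ANAPC5, the TSS that faces the partner RNF34 lies 47210 bp from the PHF20 peak, so that the bound promoter itself is not divergent. Counting only partners that face a TSS with the peak left 8 of 18 (44.4%, 24.6% to 66.3%), beside 31.9% of all PHF20-bound genes, and 5 of the 6 bound by both, beside 38.3%. The partners at these bound promoters included NOL8, MMUT, METTL4, RGS5, TATDN3, SSNA1 and CEP63, beside CENPP, CENPQ, NDC80, NUF2, NSL1, ANAPC2 and ANAPC13. Within the members, PHF20 was called at 47.4% of genes with a partner (9 of 19, 27.3% to 68.3%, or 8 of 19 without ANAPC5) and at 28.1% of those without (9 of 32, 15.6% to 45.4%), intervals that overlap. The same shares over all genes were 40.5% and 16.5%, and each lies inside the interval of the members of its kind.

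Members whose transcripts rise in G2 and M phase were looked at separately. Of the 10 genes placed in this class from general knowledge, 3 had a PHF20 peak (30%, 10.8% to 60.3%, an interval that includes the 20.7% of all genes), namely CENPA through its distant TSS, NDC80 and NUF2, and NUF2 also had a PHF20L1 peak. CENPE, CENPF, SPC25, BUB1, BUB1B, TTK and CDC20 had none. Of the other 41 members 15 had a PHF20 peak (36.6%, 23.6% to 51.9%), and the intervals overlap widely.

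Promoter letters were compared over the 300 bases from 250 before to 50 after 1 RefSeq TSS per gene, which were at hand for 44 of the 51 members and 15365 protein-coding genes. The members CENPH, CENPJ, CENPL, CENPM, KNL1, BUB3 and TTK were not among them. The CHR was found in 18 of 44 member promoters (40.9%, 27.7% to 55.6%), against 13.0% of all promoters. It was found in 7 of 16 PHF20-bound members (43.8%, 23.1% to 66.8%) and 11 of 28 unbound members (39.3%, 23.6% to 57.6%), whose intervals overlap, and over all genes it was found in 10.1% of the bound and 13.8% of the unbound. The bound members with a CHR were CENPA, CENPC, NDC80, NUF2, ZWINT, ANAPC1 and ANAPC7. The CENPA promoter searched is the canonical one, which had no peak, and without it the share in bound members was 6 of 15 (40.0%, 19.8% to 64.3%). In the class whose transcripts rise in G2 and M phase the CHR was present in 8 of 9 promoters (88.9%, 56.5% to 98.0%), all but that of CENPE. It was present in 10 of the other 35 (28.6%). Of those 8 promoters, 2 lay at a PHF20 peak, those of NDC80 and NUF2.

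The ETS motif, which over all genes was found in 16.5% of PHF20-bound and 3.62% of unbound promoters, was found in 2 of 16 bound members, CENPQ and CDC16 (12.5%, 3.5% to 36.0%), and in 2 of 28 unbound members, ANAPC4 and ANAPC11 (7.14%, 1.98% to 22.6%). At CDC16 it began 41 bp upstream of the TSS. The E-box was found at the bound ANAPC13 and CDC16 and the unbound CENPE and CENPF, 9.09% of the 44 beside 8.87% of all promoters. CCAAT boxes were found in 7 of 16 bound and 15 of 28 unbound members (43.8% and 53.6%) beside 36.6% of all promoters, and the E2F motif in 2 and 3 of them (12.5% and 10.7%, and 6.67% of bound members without CENPA) beside 4.57%. The GC box was found in 68.8% of bound and 60.7% of unbound members, beside 61.8% of all. The NRF1 type motif (GCATGCGC) was found at DSN1 and the YY1 type motif (AAGATGGCG) at CENPO, each in 1 of 44 promoters (2.27%) beside 4.37% and 2.97% of all, and the longer E-box CACGTGAC in 0 of 44 beside 3.58%. No member promoter held a TATA box (TATAAA, 0 of 44, 0% to 8.03%), a motif found in 9.42% of all promoters, in 3.83% of the PHF20-bound and in 11.0% of the unbound. The observed to expected ratio of CpG dinucleotides had a median of 0.993 in bound members (0.833 to 1.07) and 0.949 in unbound members (0.785 to 1.0), and over all genes of 0.885 in bound and 0.738 in unbound promoters. Unbound members thus had promoters with a high CpG ratio as well, and their interval includes the 0.885 of bound genes genome wide. GC content had medians of 62.2% in bound and 61.5% in unbound members, and over all genes of 65% and 63%.

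**Figure D4:**
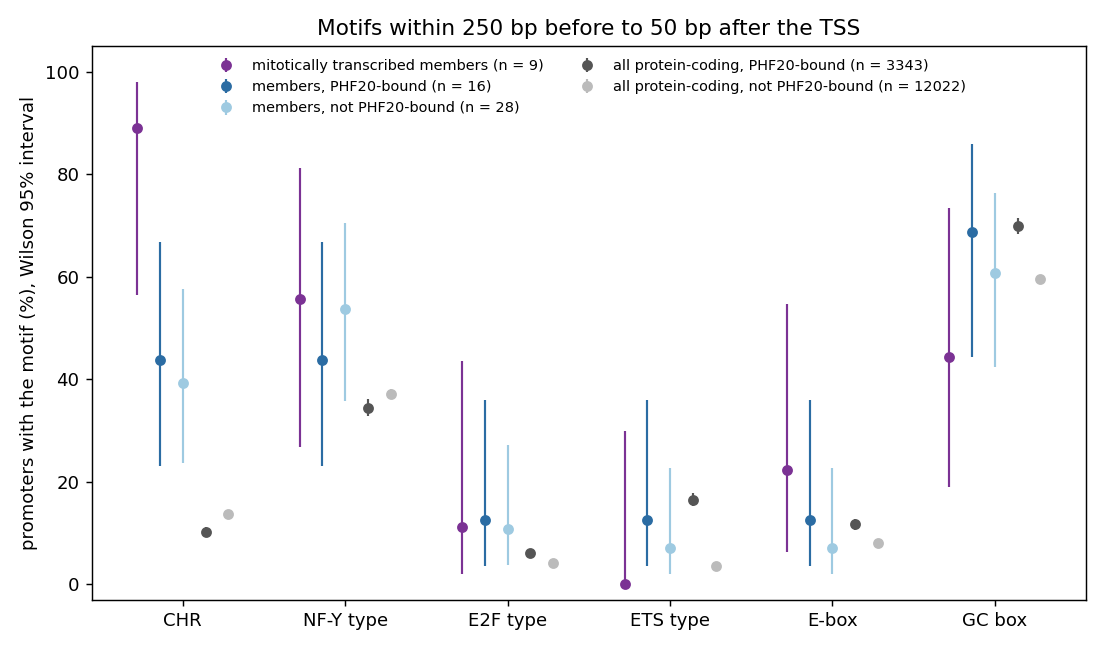
Share of promoters that hold each motif (percent, vertical axis) in the 300 bases around the TSS, with Wilson 95% intervals. Purple, labelled mitotically transcribed, is the class of members whose transcripts rise in G2 and M phase. Dark and light blue are members with and without a PHF20 peak. Dark and light grey are all protein-coding genes with and without one, n counts promoters, and the NF-Y type motif is the CCAAT box. The CHR stands at 88.9% in the purple class and at 43.8% and 39.3% in bound and unbound members. The ETS motif is more frequent in all bound than in all unbound genes.

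Other genes that act in mitosis had a PHF20 share above the 20.7% of all genes and a PHF20L1 share near the 3.82% of all genes. Of 55 such genes outside the list, 23 carried a PHF20 peak (41.8%, 29.7% to 55.0%) and 2 a PHF20L1 peak (3.64%, 1.0% to 12.3%), a PHF20L1 interval that overlaps that of the members. Among the genes with both was TRIP13, whose product takes the checkpoint complex apart, with a PHF20 peak of 801 bp and a PHF20L1 peak of 277 bp. Cohesin and separase genes had a PHF20 peak in 9 of 14 cases (64.3%, 38.8% to 83.7%), led by PDS5A at 1635 bp, and no PHF20L1 peak. PHF20 peaks were found at 4 of 7 genes in a mixed group of APC/C ubiquitin-conjugating enzymes, inhibitors and checkpoint regulators. This group included TRIP13 and MAD2L1BP, the latter with 889 bp. Of the genes of the RZZ and SKA complexes and Spindly, 2 of 6 had a PHF20 peak, among them ZWILCH with 758 bp. The passenger complex had 1 of 4, BIRC5 with 255 bp, the condensins 2 of 8, with NCAPD2 at 983 bp, and mitotic kinases and cyclins 2 of 9, with AURKA at 819 bp. Of 3 further inner kinetochore genes, CENPS was bound, with a peak of 823 bp.

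DNA replication genes, another set expressed in proliferating cells, had a PHF20 peak in 15 of 41 cases (36.6%, 23.6% to 51.9%), with the widest at MCM5 (1362 bp), and a PHF20L1 peak in 1, RFC1 (2.44%, 0.432% to 12.6%). Over all protein-coding genes the shares were 20.7% and 3.82%. The PHF20 share of the kinetochore and APC/C genes lay within the intervals of both sets.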

How the data were processed

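HA ChIP-Seq was measured in 8 libraries of U2OS cells. Per the study's methods, reads were aligned by the authors to hg38 using Bowtie (version 1.1.2 in the submitters' processing notes). Peaks were called with MACS2 (version 2.2.7.1) against input, at MACS2 p values up to 0.01 in the best replicate and 0.05 in the others. The authors removed blacklisted regions and kept those peaks of the best replicate that overlapped peaks of the other replicates. A further PHF20 replicate had been dropped by them. The deposited values are positions, the start and end of each peak in bp, with no score or signal, so wide peaks are the nearest stand-in for strong ones, and peaks weak in a replicate may be missing. The number of reads behind a peak is unknown. There were 0 unused columns of per-sample values.

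Peaks were compared with GENCODE release 44 on hg38, an annotation later than that of the authors, with coordinates counted from 1, a minimum overlap of 1 bp and mitochondrial genes left out. Shares have Wilson 95% intervals, medians have intervals from order statistics, and no test was run. RefSeq promoters (GRCh38) were searched on both strands for fixed letters. The members and gene lists were chosen with earlier results of these data known. All members are named, and values of some other genes are not reported here. Positions are given for those bound by PHF20L1 and for the 10 widest PHF20 peaks, and sequences for up to 5 bound by both proteins, 2 bound by PHF20 alone and 3 unbound. The tools were matplotlib 3.10.9, samtools 1.23.1, pysam 0.24.0, scipy 1.17.1, numpy 2.4.6 and Python 3.11.15. On simulated peaks planted at 500 of 20033 genes, the overlap step found 500. Other windows, TSS sets, peak widths and gene assignments were tried as alternatives.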

Additional observations from a re-analysis of the deposited data

How the results depend on the processing

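Across 32 alternatives to the counts and medians, motif shares apart, 26 stayed within 1.5 times the reported count or within the interval of the reported median, 5 moved farther and 1 reversed. The number of members with a PHF20 peak ran from 12 to 18, with backgrounds of 12.1% to 21.7%, and was lowest once the narrower peaks, below their list's median width, were dropped, where CENPA, CENPC, NDC80, ZWINT, BUB3 and CDC27 were lost. With only peaks of at least 300 bp, PHF20L1 was called at 3 members and both proteins at 3, since CENPQ, NUF2 and ANAPC1 were lost, and the same 3 and 3 held above the median width. With each peak given only to the gene with the closest TSS, PHF20 was called at 13 members, PHF20L1 at 4 and both at 3. The median distance of -2.5 bp became 104.5 bp when only the outermost TSS of each gene was used. With motifs sought 500 bp on each side of the TSS, the GC box share of bound members left its interval, at 93.8%. The others stayed within theirs, which are wide, although the E-box share was 31.2% in place of 12.5%. The TATA box, in 0 of 44 members before, was found in 6 of 44 (13.6%). Shares over all genes rose as well. Among all PHF20-bound promoters the GC box went from 69.9% to 90.8% and the E-box from 11.7% to 22.6%. The TATA box went from 9.42% to 23.4% of all promoters. In that window the CHR was found in 63.6% of members and 37.8% of all promoters, in place of 40.9% and 13.0%. Leaving out CENPA, chosen after seeing the data, kept every motif share of bound members in its interval. No replicate could be left out and the spread between replicates is unknown because the lists combine them. No paired analysis was possible because the lists hold no value for a single library. What depth limits could not be assessed, since the lists give none.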

Other observations

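Motifs were also counted in the 300 bp around the centre of each PHF20 peak, a window chosen after the data had been seen. In these windows the GC box was found at 7 of the 20 peaks at kinetochore and APC/C genes (35.0%, Wilson 95% interval 18.1% to 56.7%) and at 60.5% of the 3562 PHF20 peaks at protein-coding promoters. The CHR was found at 4 of the 20 (20.0%, 8.07% to 41.6%), 2 of them at CENPC and the others at ZWINT and ANAPC7, and at 8.73% of the 3562. The ETS motif was found at 1 of the 20, that of CENPQ, and at 11.6% of the 3562. The longer E-box (CACGTGAC) was found at 2 of the 20, those of CENPA and CENPP (10%, 2.79% to 30.1%), beside 3.57%. The TATA box was found at 2, those of NUF2 and ANAPC13, beside 3.12%. Neither motif was in the 44 promoters over the 300 bases around the TSS. At all of these CENPA, CENPP, NUF2 and ANAPC13 peaks the closest TSS was that of another gene (SLC35F6, NOL8, RGS5 and CEP63 in turn). The E-box was found at 10% beside 8.79%, the CCAAT box at 20.0% beside 20.4% and the E2F motif at 5.0% beside 5.17%, and the NRF1 and YY1 type motifs at 0 of the 20 beside 2.39% and 4.49%.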
